A study of Homo sapiens with 15 samples.

Results

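The 10 chemokine genes described here were measured in MHCC-97H, an established line of human hepatocellular carcinoma cells: CXCL1, CXCL2, CXCL3, CXCL5, CXCL6, CXCL8, CXCL16, CX3CL1, CCL2 and CCL20. They were chosen by symbol, as 10 of the 19143 gene rows of the deposited count table, and each was read in all 15 libraries. RNA sequencing was run in 2 rounds per the series design. The first round held cells in an animal model, cells in a 3D model and cells in a 2D model, and the second held heat-treated cells in the 3D model and the untreated control of that treatment in the 3D model, with 3 libraries in each of the 5 groups. The first round asks what a 3D setting does to the transcriptome, and the second what heat stress does to cells in that setting. All groups carry the same cell line, and no group was given another agent. The labels do not state the temperature, the length of heating, the host animal or the composition of the 3D model, and they call replicates biological without saying whether these were separate cultures or animals. The p-values therefore measure the spread between these libraries.

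Chemokines are small secreted or membrane-held proteins that guide leukocytes by binding G protein-coupled receptors. CXCL1, CXCL2, CXCL3, CXCL5, CXCL6 and CXCL8 carry a Glu-Leu-Arg motif before their paired cysteines, bind CXCR2 and draw neutrophils, and they are here called the neutrophil-attracting group. CCL20 binds CCR6 on lymphocytes and immature dendritic cells, CCL2 draws monocytes through CCR2, and CXCL16 and CX3CL1 are made as membrane proteins on a mucin-like stalk and are shed by ADAM10 and ADAM17. In epithelial and liver cancer cells many of these genes are switched on by NF-kB downstream of interleukin-1 and TNF, and several of their mRNAs are short-lived.

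The libraries held 12605539 to 18634295 counts in 14218 to 15666 genes with at least 1 read. Levels are CPM, read counts scaled to a common library total, with TMM factors that correct the totals for differences in composition. Replicates 1 and 2 of the 3D model and replicate 1 of the heated cells stood apart: the Spearman correlation of their log2 departure from the 2D mean with transcript GC content, across genes as a description, was 0.609 to 0.816 against -0.209 to 0.226 in the other 12 libraries. Their TMM factors were 0.668 to 0.729 against 0.983 to 1.28 in the others. Fold changes of named genes in 3D or with heat are given with and without them where a fold could be fitted. Removal of host reads is not stated for the animal libraries. There the fibroblast marker COL1A1 stood at 140 ± 92.9 CPM against 4.09 ± 0.151 in 2D. LUM, another fibroblast marker, stood at 55 ± 13.5 CPM there against 52.1 ± 3.21 in 2D. Of 6 tested fibroblast markers 5 were called higher there, with a limit given below. The epithelial keratins gave KRT18 at 736 ± 17 CPM in the animal libraries against 699 ± 28.8 in 2D. KRT8 was at 2170 ± 93.3 CPM against 3020 ± 48 (SD, n = 3 each for all these genes). Neither keratin was called (adjusted p = 0.915 for KRT18 and 0.477 for KRT8 by edgeR's quasi-likelihood test), though their groups did not overlap. In bulk RNA, more cells of a type and more RNA per cell cannot be told apart.

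The bases upstream of the transcription start are shown first because the neutrophil-attracting genes share a sequence there. RefSeq promoters on GRCh38.p14 were matched by symbol for 7 of the 10 genes, not for CXCL16, CX3CL1 and CCL2. Each line gives the 70 bases from 120 to 51 bases upstream of the start, 5′ to 3′ on the gene's own strand. Capitals mark GGAATTTCC, a sequence of the NF-kB binding type. In CCL20, which lacks it, they mark a run of overlapping matches to a looser NF-kB pattern of 3 G, any 5 bases and 2 C.
CXCL1: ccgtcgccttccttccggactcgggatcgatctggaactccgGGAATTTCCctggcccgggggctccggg
CXCL2: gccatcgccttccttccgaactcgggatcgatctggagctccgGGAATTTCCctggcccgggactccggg
CXCL3: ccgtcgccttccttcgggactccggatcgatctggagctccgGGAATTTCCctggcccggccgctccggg
CXCL5: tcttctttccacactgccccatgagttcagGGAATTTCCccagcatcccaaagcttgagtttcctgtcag
CXCL6: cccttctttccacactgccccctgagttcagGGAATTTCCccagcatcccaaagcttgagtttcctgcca
CXCL8: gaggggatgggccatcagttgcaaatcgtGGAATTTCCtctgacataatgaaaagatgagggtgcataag
CCL20: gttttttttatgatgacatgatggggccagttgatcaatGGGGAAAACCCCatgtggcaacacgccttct
The windows lie at chr4:73869273-73869342 (plus strand) for CXCL1, chr4:74099246-74099315 (minus) for CXCL2, chr4:74038740-74038809 (minus) for CXCL3 and chr4:73998728-73998797 (minus) for CXCL5. Those of CXCL6 and CXCL8 lie at chr4:73836558-73836627 (plus) and chr4:73740449-73740518 (plus), and that of CCL20 at chr2:227813722-227813791 (plus).

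Searched on both strands of the 250 bases upstream of the start, GGAATTTCC was found in 6 of the 7 matched genes, all of them neutrophil-attracting, and in 0.429% of 27303 promoters. It began 77 or 78 bases upstream of the start in CXCL1, CXCL2 and CXCL3, and 89 to 91 bases upstream in CXCL5, CXCL6 and CXCL8. The looser pattern, which in part overlaps it, was in 7 of 7 genes and in 53.7% of promoters. The AP-1 sequence TGACTCA was found in CXCL8 alone among the 7, 137 bases upstream, and in 4.16% of promoters. The GC box GGGCGG was in CXCL1, CXCL3 and CXCL6 and in 42.3% of promoters. The 250-base windows of CXCL5 and CXCL6 were identical at 85.9% of positions in the best ungapped alignment, and the next highest identity was 64.8%, between CXCL1 and CXCL3. CXCL5 and CXCL6 are therefore not independent examples of the shared sequence, nor are CXCL1, CXCL2 and CXCL3, whose printed windows are much alike around it. These matches are descriptions of letters and not measured binding.

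In the first round every chemokine but CCL2 had its lowest mean in 2D. CCL20, CX3CL1 and CXCL1, CXCL2, CXCL3, CXCL5 and CXCL8 of the neutrophil-attracting group were called higher in both the animal model and 3D. CXCL5 and CXCL6 were higher in the animal model than in 3D and 2D, and CCL2 had at most 1 read in any group. Per kilobase of the longest protein-coding transcript, which allows levels of different genes to be compared, CXCL5 (27.7 ± 13.3 CPM per kb), CCL20 (27.1 ± 4.26) and CXCL16 (14 ± 1.08) led in the animal model. CXCL16 (31.6 ± 16.7) and CCL20 (23.8 ± 3.01) led in 3D. CXCL16 (10.6 ± 0.505) led in 2D, followed by CCL20 (3.27 ± 0.295) and CXCL2 (1.45 ± 0.17; SD, n = 3 each).

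**Figure D1:**
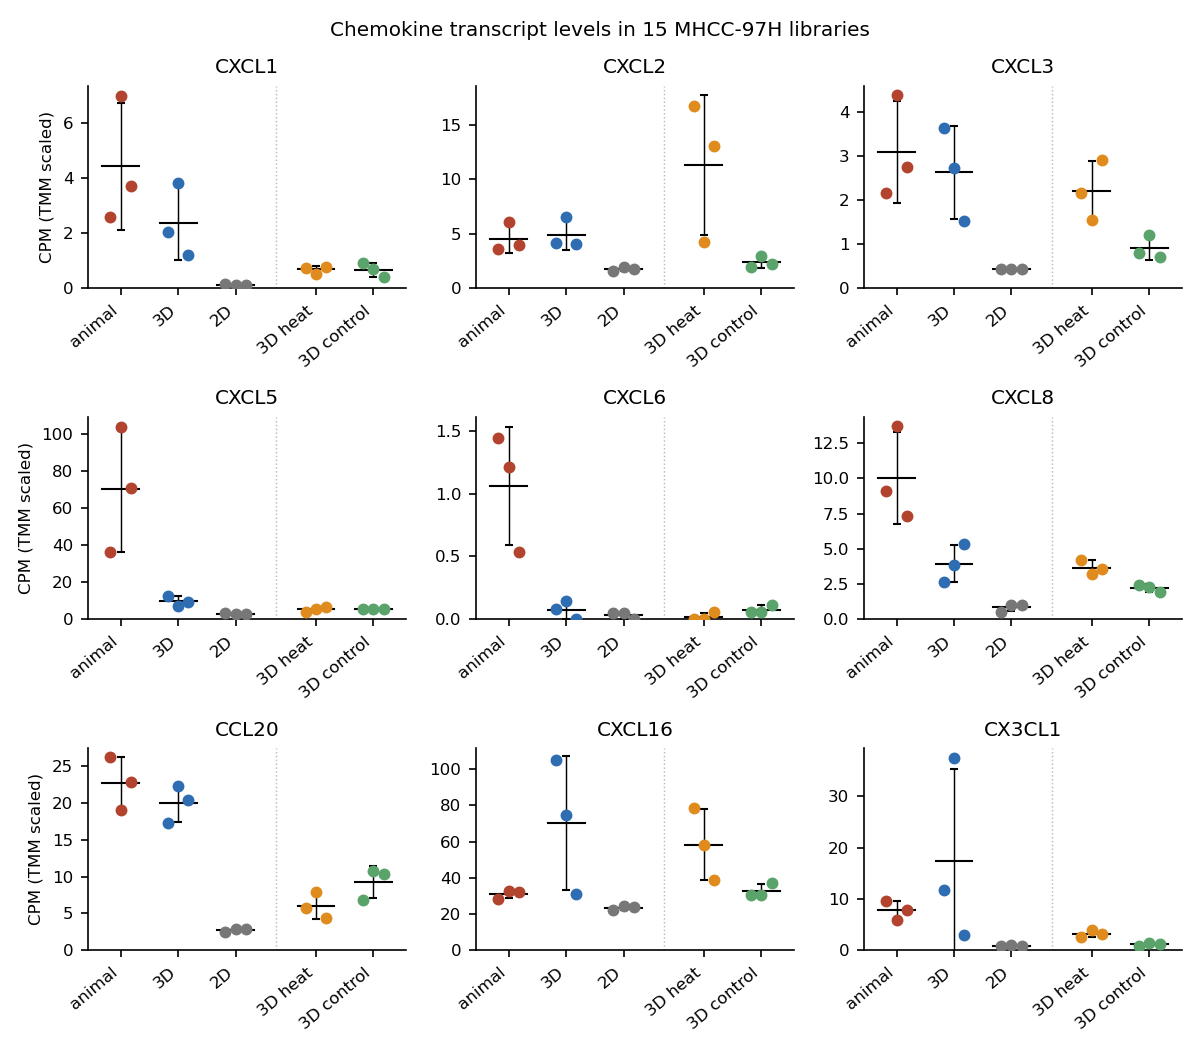
Level of 9 chemokine transcripts in each library (points; vertical axis, TMM-scaled CPM, a scale of its own for each gene), with the group mean (line) and SD (bars, not drawn below 0). The dotted line separates the rounds of sequencing. CXCL5 reached 36.2 to 104 CPM in the animal libraries and 2.71 to 3.31 CPM in the 2D libraries, and CX3CL1 ranged from 2.94 to 37.5 CPM among the 3D libraries.

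In 3D against 2D, 8 of the 10 chemokines were higher and 0 lower at an adjusted p below 0.05, by edgeR's quasi-likelihood test adjusted over 12925 genes. Of all genes tested, 20.0% were called higher and 12.9% lower. CXCL6 was tested but not called, and CCL2 did not pass the filter on low counts. The median log2 fold change of the 9 that passed was 2.17, against 0.03 over all genes tested. The same 8 had groups that did not overlap, against 24.8% of all genes tested. Without 3D replicates 1 and 2, which leaves 1 library in 3D whose spread is taken from the other groups, the same 8 were called higher and 0 lower, against 22.9% and 23.6% of genes. The smallest fold was then that of CXCL16, and CX3CL1 lost most of its fold.

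Among the neutrophil-attracting genes, CXCL1 had 26, 52 and 20 reads in 3D, against 3, 2 and 2 reads in 2D. Every 3D library was above every 2D library, and the ratio of pooled reads, corrected for library size, was 18.4 (95% interval 8.62 to 47.1, counting error only). The fitted log2 fold change of CXCL1 was 4.11 (SE 0.64, adjusted p = 0.00304). With 3D replicates 1 and 2 left out it was 3.23 (adjusted p = 0.00858). CXCL3, a close relative of CXCL1, stood at 3.62, 2.72 and 1.53 CPM in 3D, against 0.428, 0.425 and 0.429 CPM in 2D. The 2D libraries were almost equal and the lowest 3D library was replicate 3. CXCL3 was 5.82-fold higher (log2 2.54, SE 0.44, adjusted p = 0.00433), and 3.55-fold higher without 3D replicates 1 and 2 (adjusted p = 0.0177). CXCL2, another close relative, stood at 4.17, 6.55 and 4.04 CPM in 3D, against 1.55, 1.96 and 1.77 CPM in 2D.

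CXCL2 was 2.7-fold higher (log2 1.43, SE 0.32, adjusted p = 0.0116), and 2.3-fold with 3D replicates 1 and 2 left out (adjusted p = 0.0249). The CXCL2 call was lost without 2D replicate 1 (adjusted p = 0.0612) and without 2D replicate 3 (adjusted p = 0.0533). CXCL8, the neutrophil attractant also known as interleukin-8, stood at 2.67, 3.83 and 5.32 CPM in 3D, against 0.534, 1.01 and 1.02 CPM in 2D. Replicate 3 was the highest 3D library for CXCL8 and the lowest for CXCL1, CXCL2 and CXCL3. CXCL8 was 4.50-fold higher (log2 2.17, SE 0.42, adjusted p = 0.00667), and 6.22-fold higher without 3D replicates 1 and 2 (adjusted p = 0.00186). CXCL5 stood at 12.8, 7.21 and 9.54 CPM in 3D, against 3.31, 2.71 and 2.74 CPM in 2D, without overlap. Its 3.28-fold rise (log2 1.71, SE 0.40, adjusted p = 0.0131) lost its call without 2D replicate 2 (adjusted p = 0.0593), 2D replicate 3 (adjusted p = 0.0564) or 3D replicate 1 (adjusted p = 0.0501). With 3D replicates 1 and 2 both left out it was again 3.28-fold (adjusted p = 0.0449). CXCL6 had 3 reads over the 3D libraries and 2 over the 2D libraries, too few to give a fold.

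CCL20 had the smallest adjusted p of the 10 genes. Its level was 17.3, 22.3 and 20.4 CPM in 3D, against 2.46, 2.92 and 2.84 CPM in 2D. The 3D libraries were close to each other, and the lowest of them was far above the highest 2D library. The 7.08-fold rise (log2 2.82, SE 0.24, adjusted p = 0.000642) was 7.45-fold without 3D replicates 1 and 2 (adjusted p = 7.67e-05). The membrane-held CXCL16 and CX3CL1 were less even. CXCL16 stood at 105, 74.8 and 31.1 CPM in 3D, against 22.3, 24.5 and 23.9 CPM in 2D, so that 3D replicate 3 lay nearest to the 2D libraries. CXCL16 was 2.86-fold higher (log2 1.52, SE 0.36, adjusted p = 0.0147), and 1.32-fold without 3D replicates 1 and 2 (adjusted p = 0.0314). Its call was lost without any single 2D replicate (adjusted p = 0.0625, 0.0580 and 0.0583 without replicates 1, 2 and 3) and without 3D replicate 1 (adjusted p = 0.0532). CX3CL1 stood at 11.7, 37.5 and 2.94 CPM in 3D, against 0.748, 1.01 and 0.805 CPM in 2D. The groups did not overlap, but the highest 3D library was 12.8 times the lowest. CX3CL1 was 19.2-fold higher (log2 4.27, SE 0.81, adjusted p = 0.00628), and 3.43-fold without 3D replicates 1 and 2 (adjusted p = 0.00447).

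**Figure D2:**
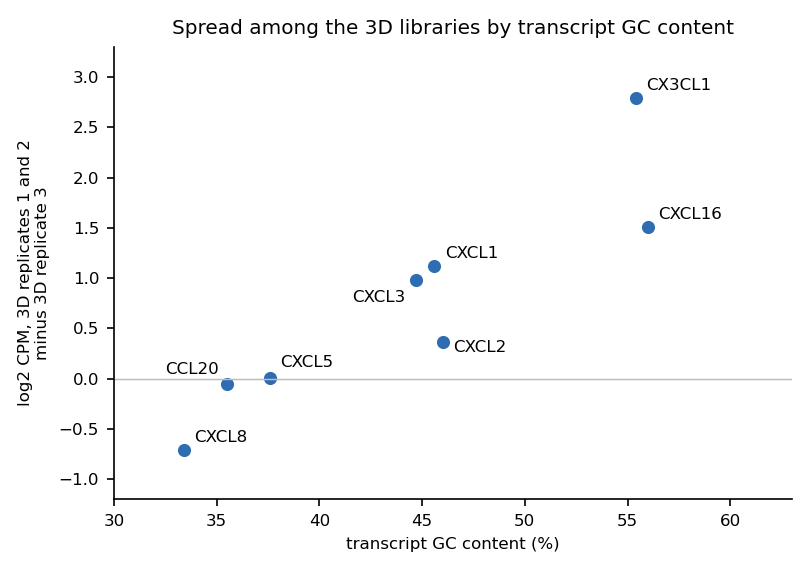
Difference in mean log2 CPM between 3D replicates 1 and 2 and 3D replicate 3 (vertical axis) against the GC content of the gene's longest protein-coding transcript (horizontal axis, percent), for 8 chemokines. CXCL8, at 33.4% GC, lay lowest at -0.71, and CX3CL1, at 55.4% GC, lay highest at 2.79.

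Differences among the 3D libraries were larger for the GC-rich transcripts, as the plot of spread by GC content shows. CXCL8, CCL20 and CXCL5, with 33.4%, 35.5% and 37.6% GC, differed by -0.71, -0.05 and 0.01 in log2 CPM between replicates 1 and 2 and replicate 3. CXCL16 and CX3CL1, with 56.0% and 55.4% GC, differed by 1.51 and 2.79. CXCL2, CXCL3 and CXCL1, with 46.0%, 44.7% and 45.6% GC, lay between them at 0.36, 0.98 and 1.12. The part of GC content in these differences was not tested gene by gene. With an offset for GC content and length, an alternative chosen after seeing the data, 8 chemokines were higher and 0 lower in 3D against 2D, against 16.0% and 16.6% of genes. The offset moved several folds by more than 1.5 times. CXCL16 became smaller (log2 0.79, adjusted p = 0.0287), and CXCL5 (log2 2.83, adjusted p = 0.00364), CXCL8 (log2 3.46, adjusted p = 0.00378) and CCL20 (log2 3.81, adjusted p = 0.00137) became larger.

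In the animal model against 2D, 8 of the 10 chemokines were again higher and 0 lower, against 7.78% of all genes tested called higher and 4.25% called lower. They differed from those called in 3D by 1 gene each way: CXCL6 was called and CXCL16 was not. CXCL6 passed the filter on low counts only through its reads in the animal libraries. Its place in this count and in the median therefore depends on the group where it is high. With no filter the count of chemokines higher was also 8. The median log2 fold change of the 9 that passed the filter was 3.19, against 0.03 over all genes. In 9 the groups did not overlap, against 32.8% of all genes tested. Reads of host cells were not separated from those of the cell line, and their part in these levels was not tested.

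CXCL5 had the smallest adjusted p of the neutrophil-attracting genes. It stood at 36.2, 104 and 70.7 CPM in the animal model, against 3.31, 2.71 and 2.74 CPM in 2D. Every animal library lay far above every 2D library, and the animal libraries spread widely around their mean. CXCL5 was 24.3-fold higher (log2 4.60, SE 0.44, adjusted p = 0.000563). CXCL6, its nearest relative by promoter sequence, had 24, 18 and 9 reads in the animal model, against 1, 1 and 0 reads in 2D. In each of the other groups CXCL6 had 1 to 4 reads in all. The animal model against 2D gave a pooled ratio of 29.7 (95% interval 7.8 to 252, counting error only) and a fitted log2 change of 4.64 (SE 0.82, adjusted p = 0.00751). CXCL1 had 43, 104 and 62 reads in the animal model, against 3, 2 and 2 reads in 2D, a pooled ratio of 34.7 (95% interval 16.6 to 87.5). Replicate 2 was the highest animal library for CXCL1, CXCL2, CXCL3, CXCL5 and CXCL8. The fitted log2 change of CXCL1 was 5.09 (SE 0.64, adjusted p = 0.00192).

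CXCL8 stood at 9.09, 13.7 and 7.36 CPM in the animal model, against 0.534, 1.01 and 1.02 CPM in 2D, and was 11.8-fold higher (SE 0.43 on the log2 scale, adjusted p = 0.00159). CXCL3 stood at 2.15, 4.38 and 2.75 CPM in the animal model, against 0.428, 0.425 and 0.429 CPM in 2D, and was 7.22-fold higher (adjusted p = 0.00387). CXCL2 changed least in fold of the group. Its level was 3.59, 6.06 and 3.95 CPM in the animal model, against 1.55, 1.96 and 1.77 CPM in 2D, a 2.60-fold rise (log2 1.38, SE 0.32, adjusted p = 0.0251). This CXCL2 call was lost without 2D replicate 1, 2 or 3 (adjusted p = 0.125, 0.0918 and 0.108) and without animal replicate 2 or 3 (adjusted p = 0.0702 and 0.0524), and with all 15 libraries in one fit (adjusted p = 0.0642).

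CCL20 stood at 26.2, 19.1 and 22.9 CPM in the animal model, against 2.46, 2.92 and 2.84 CPM in 2D. It was 8.36-fold higher (log2 3.06, SE 0.24, adjusted p = 0.000242), and its animal libraries spread little. CX3CL1 stood at 9.63, 5.86 and 7.84 CPM in the animal model, against 0.748, 1.01 and 0.805 CPM in 2D, a 9.13-fold rise (log2 3.19, SE 0.79, adjusted p = 0.0307). The groups were far apart, yet the CX3CL1 call was lost when any 1 library of the 6 was left out, with adjusted p = 0.123, 0.104 and 0.116 without 2D replicates 1, 2 and 3 and 0.0936, 0.0578 and 0.0751 without animal replicates 1, 2 and 3. This fit takes its spread from all 9 libraries of the round, in which the 3D libraries of CX3CL1 differ 12.8-fold. The CX3CL1 call was kept when the animal model and 2D were fitted alone. In that fit 9 chemokines were called higher and 0 lower, and 7289 genes were called in all. CXCL16 stood at 28.3, 32.7 and 32.1 CPM in the animal model, against 22.3, 24.5 and 23.9 CPM in 2D. Those groups did not overlap, but the 1.33-fold difference did not pass the test (log2 0.41, SE 0.36, adjusted p = 0.535) unless the fit held these 2 groups alone (adjusted p = 0.00613). The GC and length offset lowered the log2 fold change against 2D to 2.94 for CXCL8 (adjusted p = 0.00575) and to 2.27 for CCL20 (adjusted p = 0.0104).

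**Figure D3:**
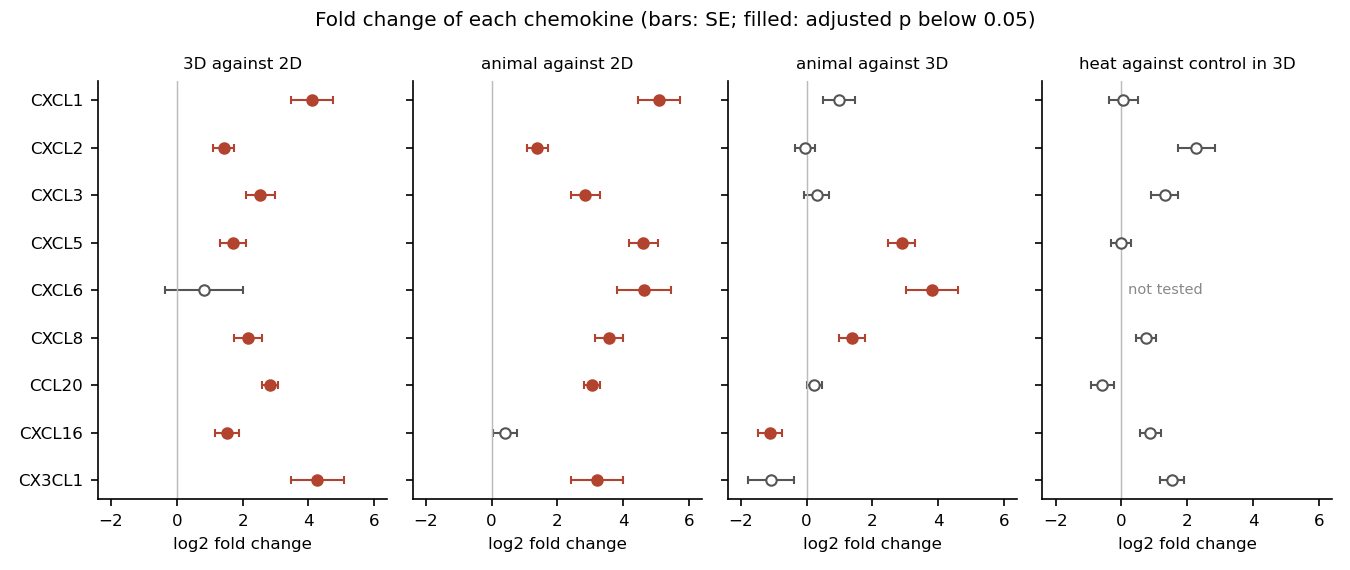
Log2 fold change (horizontal axis) of 9 chemokines in the 4 comparisons, with the standard error as bars. Filled points passed an adjusted p of 0.05. CXCL1, CXCL3, CXCL5, CXCL8, CCL20, CX3CL1 and CXCL2 are filled in both comparisons with 2D, and no point is filled for heat against control.

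Of the 10 chemokines, 3 were higher (CXCL5, CXCL6 and CXCL8) and 1 was lower (CXCL16) in the animal model against 3D. Of all genes tested, 18.6% were called higher and 22.9% lower, and beside those shares the counts are no result about the chemokines as a group. The median log2 fold change of the 9 tested was 0.31, against 0.10 over all genes. CXCL5 stood at 36.2, 104 and 70.7 CPM in the animal model, against 12.8, 7.21 and 9.54 CPM in 3D, without overlap. It was 7.42-fold higher (log2 2.89, SE 0.40, adjusted p = 0.00139), and 7.31-fold without 3D replicates 1 and 2 (adjusted p = 0.00644). With the GC and length offset its log2 fold change was 1.37 (adjusted p = 0.0397). CXCL6, which passed the filter only through the animal libraries, had 51 reads in them together, against 3 in the 3D libraries. This gave a pooled ratio of 15 (95% interval 4.86 to 75.2) and a fitted log2 change of 3.82 (SE 0.79, adjusted p = 0.00624). Its call was kept without 3D replicates 1 and 2 (adjusted p = 0.0110), where the 3D model is at 0 reads, and with the offset (log2 2.99, adjusted p = 0.0233).

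CXCL8 stood at 9.09, 13.7 and 7.36 CPM in the animal model, against 2.67, 3.83 and 5.32 CPM in 3D, and was 2.62-fold higher (log2 1.39, SE 0.39, adjusted p = 0.0211). The CXCL8 call was lost without 3D replicates 1 and 2 (log2 0.90, adjusted p = 0.109), without 3D replicate 1 alone (adjusted p = 0.0737) and without animal replicate 2 (adjusted p = 0.0742), and its sign turned with the GC and length offset (log2 -0.52, adjusted p = 0.466). CXCL16 was called lower, at 28.3, 32.7 and 32.1 CPM in the animal model, against 105, 74.8 and 31.1 CPM in 3D (log2 -1.10, SE 0.36, adjusted p = 0.0368). Its groups overlapped: 3D replicate 3 lay within the range of the animal libraries. Without 3D replicates 1 and 2 the log2 difference of CXCL16 was -0.01 (adjusted p = 0.950), and its call was also lost without 3D replicate 1 (adjusted p = 0.145), 3D replicate 2 (adjusted p = 0.0688) or animal replicate 1, 2 or 3 (adjusted p = 0.110, 0.0864 and 0.0909). With the offset it was -0.52 (adjusted p = 0.101), and with these 2 groups fitted alone -1.18 (adjusted p = 0.0838).

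CX3CL1 took a different sign with and without those libraries. At 9.63, 5.86 and 7.84 CPM in the animal model, against 11.7, 37.5 and 2.94 CPM in 3D, its log2 difference was -1.08 (SE 0.70, adjusted p = 0.227). Without 3D replicates 1 and 2 it was 1.39 (adjusted p = 0.0130), without 3D replicate 2 it was 0.15 (adjusted p = 0.828), and without 3D replicate 3 it was -1.57 (adjusted p = 0.00664). CXCL1 did not pass (log2 0.98, SE 0.49, adjusted p = 0.128) but did without 3D replicates 1 and 2 (log2 1.84, adjusted p = 0.0420) or without 3D replicate 2 (log2 1.49, adjusted p = 0.0468). CXCL2 (log2 -0.05, adjusted p = 0.893), CXCL3 (0.31, adjusted p = 0.517) and CCL20 (0.24, adjusted p = 0.375) overlapped between the groups. With 3D replicates 1 and 2 left out their log2 differences were 0.16, 1.0 and 0.15 (adjusted p = 0.741, 0.120 and 0.548). With the GC and length offset CCL20 instead came out lower in the animal model (log2 -1.53, adjusted p = 0.0330). Without 3D replicates 1 and 2, CXCL1, CXCL5, CXCL6 and CX3CL1 were called higher and 0 chemokines lower, against 24.6% and 22.5% of genes.

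Heat in the 3D model gave 0 chemokines higher and 0 lower by edgeR's quasi-likelihood test, where 0.00792% of 12627 genes were called higher and 0.0158% lower. At an unadjusted p below 0.05, 5 were higher (CXCL2, CXCL3, CXCL8, CXCL16 and CX3CL1) and 0 lower, against 11.8% of all genes higher and 8.97% lower. DESeq2 called 2 higher (CXCL2 and CX3CL1) and 0 lower, against 6.74% and 5.46% of genes. The same 5 had groups that did not overlap, against 16.5% of genes not overlapping in that direction. The median log2 fold change of the 8 that passed the filter was 0.81, against 0.10 over all genes.

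CXCL2 showed the largest difference, at 16.7, 4.20 and 13.0 CPM in heated cells, against 1.95, 2.98 and 2.23 CPM in control cells. Replicate 1, which stands apart, was the highest heated library, and replicate 2, at 4.20 CPM, was nearest to the controls. The log2 fold change was 2.28 (SE 0.55, adjusted p = 0.116). Without heated replicate 1 it was 1.88 (adjusted p = 0.0410) and without heated replicate 2 it was 2.67 (adjusted p = 0.0267). CX3CL1 stood at 2.62, 3.87 and 3.18 CPM in heated cells, against 0.802, 1.37 and 1.23 CPM in control cells. Its heated libraries were alike and all above the controls, with a log2 difference of 1.54 (SE 0.36, adjusted p = 0.109), and of 1.66 without heated replicate 1 (adjusted p = 0.0174). Without that library 14.0% of all genes were called higher and 14.8% lower, and CXCL2 and CX3CL1 were the chemokines called.

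CXCL3 stood at 2.15, 1.55 and 2.91 CPM in heated cells, against 0.802, 1.20 and 0.703 CPM in control cells (log2 1.32, SE 0.41, adjusted p = 0.152). CXCL16 stood at 78.3, 58.0 and 38.9 CPM in heated cells, against 30.3, 30.7 and 37.0 CPM in control cells (log2 0.88, SE 0.31, adjusted p = 0.191). The heated replicate 3 of CXCL16 was just above the highest control. CXCL8 stood at 4.21, 3.19 and 3.58 CPM in heated cells, against 2.46, 2.29 and 1.93 CPM in control cells (log2 0.75, SE 0.31, adjusted p = 0.232). CXCL1 (log2 0.06, adjusted p = 0.951) and CXCL5 (log2 -0.01, adjusted p = 0.985) overlapped between heated and control cells. CCL20 leaned the other way, at 5.71, 7.93 and 4.41 CPM in heated cells, against 6.76, 10.7 and 10.4 CPM in control cells, with overlap and no call (log2 -0.58, SE 0.34, adjusted p = 0.353). With heated replicate 1 left out the log2 differences were 1.32 for CXCL3 (adjusted p = 0.0602), 0.60 for CXCL16 (adjusted p = 0.0645), 0.63 for CXCL8 (adjusted p = 0.0918) and -0.56 for CCL20 (adjusted p = 0.230), and those of CXCL1 and CXCL5 were -0.01 and 0.17 (adjusted p = 0.985 and 0.490). CXCL6 had 1 read in heated cells and 4 in control cells. Its groups did not overlap, in the direction where 20.2% of all genes did not, but at these counts no fold can be given.

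CCL2 had 1 read in the animal model, 1 in heated cells and 0 in the 3D model, the 2D model and control cells. In the libraries at 0, that count allows a level of up to 0.145 to 0.236 CPM, taking 3 reads as the limit. Levels below that limit are not excluded by 0 reads at this depth.

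The make-up of the neutrophil-attracting group differed between settings. Summed over its 6 genes, the level was 44.8 ± 18.8 CPM per kb in the animal model, 14.9 ± 1.95 in 3D and 3.63 ± 0.163 in 2D (SD, n = 3 each). CXCL5 made up 60.4 ± 7.98% of that sum in the animal model, against 26.6 ± 8.32% in 3D and 31.8 ± 5.11% in 2D, and its lowest animal share, 51.5%, was above its highest share in 3D (33.0%) and 2D (37.7%). CXCL2 made up 8.68 ± 1.68% in the animal model, 26.9 ± 5.12% in 3D and 39.8 ± 2.91% in 2D. In the second round the sum was 16.2 ± 5.9 CPM per kb in heated cells and 6.93 ± 0.814 in control cells. There CXCL2 made up 53.6 ± 15.7% in heated cells, from 36.5 to 67.5%, against 28.1 ± 4.15% in control cells, from 23.4 to 31.3%. The mean share of CXCL8 lay between 13.7 ± 4.06% in 2D and 18.9 ± 2.03% in control cells, with single libraries from 9.04% in 2D to 24.5% in 3D. In 3D replicate 3, the library of that group that did not stand apart, the sum was 12.7 CPM per kb, of which CXCL5 made up 29.5% and CXCL2 26.0%. In heated replicates 2 and 3 the sum was 9.46 and 18.8 CPM per kb, with CXCL2 at 36.5% and 56.7%. No test was run on shares, since 3 libraries against 3 cannot give an exact permutation p below 0.1. The shares of CXCL1, CXCL2 and CXCL3 carry a further limit: 5.73%, 9.24% and 5.26% of their 50-base transcript windows, the length of the reads, also occur in another of these relatives.

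**Figure D4:**
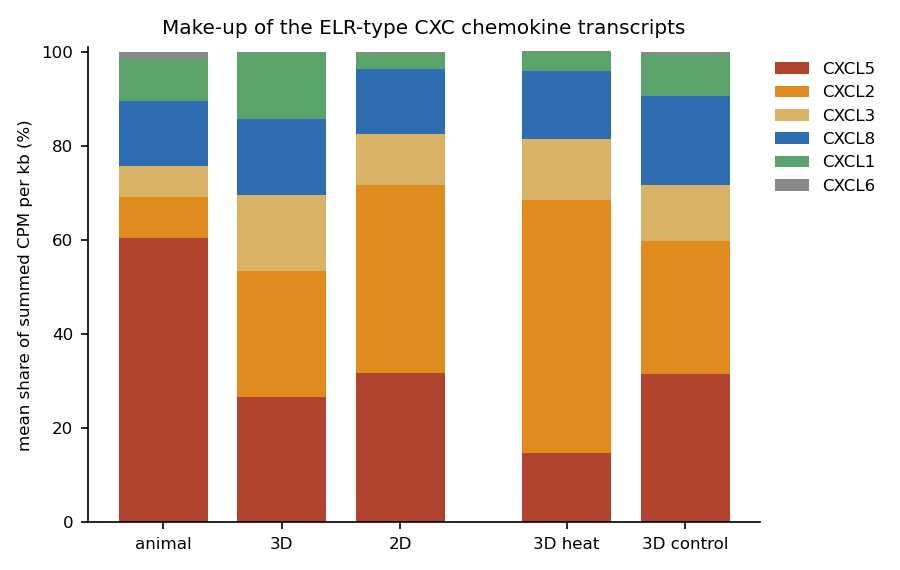
Mean share (vertical axis, percent) of each neutrophil-attracting chemokine in their summed CPM per kb, by group (3 libraries each). CXCL5 makes up 60.4% of the bar for the animal model, and CXCL2 53.6% of the bar for heated cells.

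Across all 5 groups, CXCL1 ranked from low to high as 2D, control, heated, 3D and animal, with overlap between control and heated cells and between 3D and the animal model. CXCL5 and CXCL8 in the animal model lay above all other groups without overlap. CXCL2 was highest in heated cells (11.3 ± 6.43 CPM), overlapping with 3D (4.92 ± 1.41) and with the animal model (4.53 ± 1.34). The untreated 3D cells of the second round and the 3D cells of the first differed in level for several genes, with CCL20 at 20.0 ± 2.53 CPM in the first round and 9.28 ± 2.18 in the second. Round and group cannot be told apart there, and no test was made.

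The counts in the gene lists that follow stand beside these shares of all genes tested. In 3D against 2D 20.0% were higher and 12.9% lower, or 22.9% and 23.6% without 3D replicates 1 and 2. The animal model against 2D had 7.78% higher and 4.25% lower, and against 3D it had 18.6% and 22.9%, or 24.6% and 22.5% without those libraries. For heat the shares were 11.8% and 8.97% at an unadjusted p below 0.05, 6.74% and 5.46% by DESeq2, and 14.0% and 14.8% by edgeR without heated replicate 1.

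Chemokines outside the 10 were few. Of 38 other chemokines listed, 34 had a row and 7 passed the filter in the first round. In 3D against 2D, 3 were higher and 0 lower, with a median log2 change of 0.79. CCL28, which draws lymphocytes to mucosa, stood at 21.5 ± 16.7 CPM in 3D against 6.46 ± 0.423 in 2D (log2 1.72, adjusted p = 0.0383), and CCL26, an eotaxin, at 20.7 ± 8.99 against 5.20 ± 1.06 (log2 1.94, adjusted p = 0.00555). With 3D replicates 1 and 2 left out they were 2.63 and 1.15 higher in log2 (adjusted p = 0.000139 and 0.00925). The third, CCL15, was too low for the rule on named genes and is named because the count is small (log2 1.73, adjusted p = 0.0322; 0.92 and 0.266 without 3D replicates 1 and 2). Another 3 were higher and 0 lower in the animal model against 2D, and they too are named after their values were seen. They were CXCL14 at 2.40 ± 1.08 CPM in the animal model against 0.0179 ± 0.031 in 2D, CXCL17 at 3.27 ± 2.26 against 0.0890 ± 0.0618, and CCL24, another eotaxin, at 5.48 ± 2.60 against 1.05 ± 0.105. CXCL14, with 1 read in 2D and 0 in 3D, and CXCL17, with 5 and 7, passed the filter only through the animal libraries. Their place in this count therefore depends on the group where they are high. CXCL10, an interferon-induced chemokine, had at most 1 read in any group. With heat 4 were tested and 0 called by edgeR, 1 was higher and 0 lower at an unadjusted p below 0.05, and DESeq2 called 1 higher. Without heated replicate 1, 1 of 6 was higher and 0 lower. CCL26 stood at 259, 19.6 and 30.9 CPM in heated cells, against 8.36, 6.12 and 7.96 in control cells, and its highest library was replicate 1, which stands apart.

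The receptors of these chemokines were at or near 0. Of 23 chemokine receptors, all with a row, 4 passed the filter in the first round. CXCR1 and CXCR2, which bind the neutrophil-attracting group, had 0 reads in the animal model and in 2D, and CXCR2 had 3 in 3D. CCR6, the receptor of CCL20, had 31 reads in the animal model, 2 in 3D and 0 in 2D. CXCR6, the receptor of CXCL16, stood at 1.61 ± 0.217 CPM in the animal model, against 0.320 ± 0.0529 in 2D (log2 2.32, adjusted p = 0.0191). With 18 reads over the 2D libraries and 2 over the 3D libraries, CXCR6 passed the filter only through the animal libraries, where it is high. ACKR3, a decoy receptor for CXCL12, was lower, at 1.51 ± 1.79 CPM in the animal model, against 12.8 ± 0.533 in 2D (log2 -3.07, adjusted p = 0.0268). With heat 2 receptors were tested and 0 called by edgeR, 2 were higher and 0 lower at an unadjusted p below 0.05, and DESeq2 called 1 higher. Without heated replicate 1, 3 of 5 were higher and 0 lower. CCRL2 stood at 47.4, 11.7 and 17.7 CPM in heated cells, against 6.3, 6.52 and 7.03 in control cells. CXCR6, ACKR3 and CCRL2 are named after their values were seen.

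Cytokines known to induce these genes, and their receptors, went in both directions. Of the 24 with a row, 16 were tested. In 3D against 2D 5 were higher and 3 lower, beside 20.0% and 12.9% of all genes, and without 3D replicates 1 and 2 it was 6 and 3 of 17. The 5 higher were IL1B, TNF, IL1RN, TNFRSF1A and IL17RC, and the 3 lower were IL18, IL6R and IL1R1. Interleukin-1 beta (IL1B) stood at 4.82 ± 2.14 CPM in 3D against 0.498 ± 0.11 in 2D (log2 3.20, adjusted p = 0.00199; 2.82 and 0.00166 without 3D replicates 1 and 2). TNF stood at 1.0 ± 0.665 CPM in 3D against 0.0358 ± 0.062 in 2D (log2 4.47, adjusted p = 0.0114), and its call was lost with those libraries left out (adjusted p = 0.0859). Interleukin-18 (IL18) stood at 13.0 ± 2.53 CPM in 3D against 28.3 ± 1.55 in 2D (log2 -1.16, adjusted p = 0.0171; -1.08 and 0.0369 with them left out). The ligand LIF, at 22.8 ± 6.72 CPM in 3D against 16.9 ± 1.04 in 2D, was not called (adjusted p = 0.247).

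TNFRSF1A, a receptor of TNF, was higher in 3D (log2 1.04, adjusted p = 0.0163; 0.39 and 0.00563 with those libraries left out), and the interleukin-17 receptor chain IL17RC was too (log2 1.42, adjusted p = 0.0119), but not with them left out (0.58, adjusted p = 0.0561). The interleukin-1 receptor antagonist IL1RN lost its call in the same way (log2 1.37, adjusted p = 0.0345, and 0.84, adjusted p = 0.153). IL1B, TNF, IL18, LIF and IL1RN are named after their values were seen. The receptors IL6R (51.7 ± 2.85 CPM in 3D against 135 ± 3.35 in 2D, log2 -1.43, adjusted p = 0.00362) and IL1R1 (28.9 ± 10.8 against 75.3 ± 1.04, log2 -1.41, adjusted p = 0.00976) were lower, by log2 values of -1.32 and -0.86 with those libraries left out (adjusted p = 0.00993 and 0.0146). The animal model against 2D had 5 higher and 2 lower, and the 2 lower ones were again IL6R (log2 -1.25, adjusted p = 0.00894) and IL1R1 (log2 -1.10, adjusted p = 0.0457). IL1B was 3.48 ± 1.26 CPM in the animal model, against 0.498 ± 0.11 in 2D (log2 2.80, adjusted p = 0.00444). With heat 15 of the list were tested and 0 called by edgeR, 3 were higher and 0 lower at an unadjusted p below 0.05, and DESeq2 called 1 higher. Without heated replicate 1, 4 were higher and 3 lower.

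NF-kB subunits and feedback genes were all tested, 20 of 20. In 3D against 2D 11 were higher and 1 lower, with a median log2 change of 1.12. ICAM1, an adhesion molecule for leukocytes, stood at 211 ± 87.3 CPM in 3D against 48.2 ± 0.528 in 2D (log2 2.08, adjusted p = 0.00174; 1.88 and 6.66e-05 without 3D replicates 1 and 2). The inhibitor NFKBIA was 1.35 higher in log2 (adjusted p = 0.00335), and 0.88 higher without those libraries (adjusted p = 0.000489). RELB, a subunit of the non-canonical pathway, was 2.13 higher (adjusted p = 0.00467), and 0.93 without them (adjusted p = 0.000527). Without the 2 libraries 14 of the 20 were higher and 4 lower. In the animal model against 2D 4 were higher and 0 lower, with a median of 0.40: NFKB2, ICAM1, the feedback enzyme TNFAIP3 (61.0 ± 13.6 CPM in the animal model against 15.8 ± 0.0814 in 2D, log2 1.97, adjusted p = 0.00291) and TRAF1, the last named for the small count. In the animal model against 3D 4 were higher and 8 lower, and 4 higher and 5 lower without 3D replicates 1 and 2. In heat against control 0 were called by edgeR, 10 were higher and 0 lower at an unadjusted p below 0.05, and DESeq2 called 8 higher. Without heated replicate 1, 13 of the 20 were higher and 0 lower.

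AP-1 and C/EBP factors, 12 of 12 tested, were higher for 4 genes and lower for 1 in 3D against 2D, with a median log2 change of 0.76. Without 3D replicates 1 and 2 they were higher for 5 and lower for 4, with a median of 0.32. CEBPD, which acts in acute-phase gene control, stood at 135 ± 11.9 CPM in 3D against 39.9 ± 1.65 in 2D (log2 1.71, adjusted p = 0.00132), and the early-response factor EGR1 at 22.8 ± 2.7 against 61.0 ± 7.20 (log2 -1.46, adjusted p = 0.00256). With those libraries left out the log2 values were 1.61 for CEBPD and -1.62 for EGR1 (adjusted p = 0.000768 and 0.00134). In the animal model against 2D, 1 of them was higher and 2 were lower, EGR1 again among the lower (log2 -1.82, adjusted p = 0.00154). With heat 0 of these 12 were called, 7 were higher at an unadjusted p below 0.05 and DESeq2 called 6 higher. Of 10 listed genes that act on unstable mRNAs, not all of them by promoting decay, 2 were higher and 0 lower in 3D against 2D. This was no more than the 20.0% of all genes called higher, and 2 were lower at an unadjusted p below 0.05. Without 3D replicates 1 and 2, 3 were higher and 4 lower. The 2 higher were ZFP36, which binds AU-rich elements (619 ± 130 CPM in 3D against 238 ± 7.50 in 2D, log2 1.34, adjusted p = 0.00278), and the RNase ZC3H12A (103 ± 60.2 against 21.3 ± 0.315, log2 2.22, adjusted p = 0.00361). With those libraries left out they were 1.39 and 1.41 higher in log2 (adjusted p = 0.000195 and 0.000159). By edgeR 0 of the 10 were called in the animal model against 2D, where 0 were higher and 2 lower at an unadjusted p below 0.05 and DESeq2 called 1 lower. In heat against control 0 were called, 1 was higher and 1 lower at an unadjusted p below 0.05, and DESeq2 called 1 in each direction.

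Of the sheddases and chemokine-cleaving proteases, 7 of 10 were tested. MMP7 stood at 183 ± 25.7 CPM in 3D against 73.9 ± 6.29 in 2D (log2 1.27, adjusted p = 0.00221), and at 364 ± 43.7 in the animal model (log2 2.32 against 2D, adjusted p = 0.000264). MMP14 was also higher in both, by a log2 of 1.69 in 3D (adjusted p = 0.0177) and 1.93 in the animal model (adjusted p = 0.0207). With 3D replicates 1 and 2 left out MMP7 was 1.17 and MMP14 1.48 higher in log2 in 3D (adjusted p = 0.00052 and 0.0136), and 4 genes of the list were higher and 1 lower. In the fits of all libraries MMP7 and MMP14 were the 2 genes of the list higher in 3D against 2D and the 2 higher in the animal model against 2D, and the protease CTSL was lower in the animal model (log2 -0.66, adjusted p = 0.0471). With heat 0 of the 7 were called, 1 was higher and 1 lower at an unadjusted p below 0.05, and DESeq2 called 0.

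Markers of other cells were read beside the chemokine values. Of 8 neutrophil markers 0 passed the filter, their sum was at most 0.741 CPM in an animal library and 0.551 in a 3D library, and S100A8, CSF3R and FCGR3B had 0 reads in the animal model. Of 11 fibroblast markers 6 were tested and 5 were higher in the animal model against 2D, and the sum was 163 to 459 CPM in the animal libraries, against 64.8 to 69.4 in the 2D libraries. THY1 had 0 reads in the animal model. Of 12 macrophage and leukocyte markers 7 were tested and 5 were higher in the animal model against 2D. The sum over the 12 was 165 to 220 CPM in the animal libraries and 103 to 110 in the 2D libraries. CD68 made up most of that sum in both, at 111 to 177 CPM in the animal libraries and 97.6 to 103 in 2D. The leukocyte marker PTPRC stood at 0.708 ± 0.434 CPM in the animal model against 0.303 ± 0.217 in 2D, and TYROBP was at 0 reads in the animal model. LYZ and LAPTM5, each with at most 2 reads in 2D and in 3D, also passed the filter only through the animal libraries. The fibroblast and leukocyte counts therefore depend in part on the group where these markers are high. In 3D the macrophage and leukocyte sum was 387 to 501 CPM, of which CD68 made up 439 ± 57.9. Of 8 endothelial markers 3 were tested, and 2 were higher and 0 lower in the animal model against 2D. Among those tested, TEK, with 11 reads in 2D and 2 in 3D, passed the filter only through the animal libraries. The endothelial sum was 43.5 to 65.7 CPM in the animal libraries and 47.2 to 59.5 in the 2D libraries. ESAM made up most of it, at 45.5 ± 11.9 CPM in the animal model against 52.3 ± 6.1 in 2D. KDR, named after its values were seen, stood at 7.94 ± 6.18 CPM against 1.1 ± 0.129, while VWF had 1 read against 12. Of 12 hepatocyte lineage markers, 5 were higher and 1 lower in the animal model against 2D, with albumin (ALB) at 162 ± 104 CPM against 2.37 ± 0.229. The part of other cells in the chemokine levels was not tested.

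The genes whose pattern over the 15 libraries was most like that of a chemokine were found by Pearson's r of log2 CPM among 9448 genes. AZGP1 led for both CXCL1 (r = 0.926) and CXCL8 (r = 0.931). HYAL1 led for CCL20 (0.939), OR2I1P for CXCL5 (0.954), BAAT for CXCL6 (0.959), ZCCHC3 for CXCL2 (0.943) and ING4 for CXCL3 (0.916). NARF led for CXCL16 (0.954), followed by BCL3 (0.938), and SULT1A4 led for CX3CL1 (0.948). Among the chemokines themselves, r was 0.88 for CXCL1 with CXCL8, with CXCL3 and with CCL20, and 0.26 for CXCL2 with CCL20. These values describe 15 libraries that fall into 5 groups and share library composition. Over the 12 libraries left without the 3 that stood apart, r of CXCL16 with BCL3 was 0.795 and r of CXCL8 with AZGP1 was 0.949.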

How the data were processed

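The authors deposited 1 table of read counts per gene, not normalized, for the 15 libraries. Per the labels' protocols, mRNA was fragmented, primed with random hexamers and read as 50-base single ends on DNA nanoballs, and no step of it is said to mark strand. The submitters' processing notes list HISAT2 and the build hg19, and the counting tool is not given in the sources used here. Reads of a gene and an antisense partner cannot be told apart, and host and human reads may be counted together in the animal libraries. Of 19143 rows, 1443 held no read and 27 had date-like symbols (0.168% of counts).

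Each round was fitted alone in edgeR 4.0.16 (R 4.3.3, limma 3.58.1): filterByExpr with a minimum count of 10, TMM scaling, a robust quasi-likelihood fit with group as the one term, and Benjamini-Hochberg adjustment over all genes tested (12925 and 12627). A call is an adjusted p below 0.05. The SE is the log2 fold change over the root of F. Levels are CPM scaled over 15 libraries together, and per kilobase of the longest protein-coding GENCODE 29 transcript, which also gave GC content (99.1% of the genes tested in the first round had one). Shorter transcripts in use would raise a level per kilobase. The 10 chemokines are all named. Of other lists a gene is named if called, at 10 CPM or more on average and without overlap between groups, up to 4 per list and comparison, and exceptions are stated. The chemokines and lists were chosen with earlier results of these data known. Alternatives were DESeq2 1.42.0, other scalings, filters and fits, a fold threshold of 1.5, a GC and length offset and leaving out libraries. The GC and length offset and leaving out heated or control libraries were added after seeing the data. The scripts were tested on simulated data. PECAM1, LTBR and 4 chemokines (CCL3L1, CCL3L3, CCL4L1, CCL4L2) were not analysed here. Intervals and limits cover counting error only.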

Additional observations from a re-analysis of the deposited data

How the results depend on the processing

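Over 35 fold changes of single chemokines and 564 alternative values, 491 kept direction and side of the threshold, 39 lost the call, 12 gained one and 22 changed sign. Of 20 calls 13 held under every alternative that gave a value (CXCL6 gave none under the stricter filter, nor against 3D in a fit of 2 groups alone). These were CXCL1, CXCL3, CXCL8, CX3CL1 and CCL20 in 3D against 2D, CXCL1, CXCL3, CXCL5, CXCL6, CXCL8 and CCL20 in the animal model against 2D, and CXCL5 and CXCL6 in the animal model against 3D. The cause of the other shifts was not tested, apart from those made by fewer libraries or a stricter null. The number of chemokines higher in 3D against 2D ran from 5 to 8 when 1 library was left out (5 without 2D replicate 3). In the animal model against 3D, fitting those 2 groups alone left 1 chemokine higher and 0 lower. The 1 lower became 0 with the fold threshold and without 3D replicates 1 and 2, and ran from 0 to 2 when 1 library was left out. In heat against control the 0 higher became 2 with DESeq2, 2 with the GC and length offset, 1 with all 15 libraries in one fit and 0 to 2 when 1 library was left out.

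Over all genes, 4247 were called in 3D against 2D, 1792 with the fold threshold, 2493 with 2 groups alone and 1795 to 9493 with 1 library left out. Against 2D the animal model had 1555 genes called, 2437 by DESeq2, 856 with the fold threshold, 4073 with the GC and length offset, 7289 with 2 groups alone and 652 to 1154 with 1 library left out. Against 3D it had 5367, 2921 with the fold threshold, 2746 with 2 groups alone and 3361 to 10132 with 1 library left out. Heat had 3 genes called, 1541 by DESeq2, 1 with median-ratio scaling, 1 with the fold threshold, 1394 with the GC and length offset, 1511 with all 15 libraries in one fit and 0 to 3691 with 1 library left out.

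Replicate numbers did not pair the libraries: same-numbered libraries of compared groups correlated by -0.225 to 0.14 in their deviations from the group means. With the number as a replicate block, the chemokine called lower in the animal model against 3D was lost (0), 1031 genes were called in the animal model against 2D and 30 in heat against control.

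Some log2 fold changes turned sign, and those of CX3CL1 and CCL20 between the animal model and 3D passed the test after the turn. CXCL6 in 3D against 2D became -2.56 with both 3D libraries that stood apart left out, and ran from -0.05 to 1.42 with 1 library left out. Between the animal model and 3D, CXCL2 became 0.08 with upper-quartile scaling, 0.16 without those 2 libraries and -0.32 to 0.18 with 1 library left out. CXCL3 became -0.02 with the GC and length offset and -0.02 to 0.60 with 1 library left out, CXCL8 -0.52 and CCL20 -1.53 with the offset, and CX3CL1 1.39 without the 2 libraries and -1.57 to 0.15 with 1 library left out. For heat, CXCL1 became -0.07 with upper-quartile scaling, -0.15 with the offset and -0.20 to 0.34 with 1 library left out. CXCL5 became 0.01 with DESeq2, 0.01 with median-ratio scaling, 0.04 with the offset and -0.20 to 0.17 with 1 library left out. Group means moved by more than 1 SD in 6 of 50 cases with CPM from total counts and in 1 of 50 with factors of each round alone. Depth limits CXCL6 and CCL2 throughout and CXCL1 in 2D. The calls of CXCL6 concern a gene that passed the filter only through the animal libraries.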
